A study of Mus musculus with 6 samples.

Results

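The miR-148 and miR-152 family of mouse liver was measured by small RNA sequencing in 6 libraries, 1 for each animal. The family has 6 mature miRNAs, made from the 2 arms of 3 hairpins: miR-148a-3p, miR-148a-5p, miR-148b-3p, miR-148b-5p, miR-152-3p and miR-152-5p. They were taken from the 1907 distinct miRNAs of the count table by name, and all 6 were found. The animals were C57BL/6N mice aged 12 weeks, 3 females and 3 males from shared litters, in normal health, fed a standard chow and carrying no transgene or treatment. The series is about Sh3bp5, whose product SAB sits in the outer mitochondrial membrane, and about acute liver injury whose severity differs with sex; these livers had no injury. The comparison of females with males therefore asks which miRNAs already differ between the sexes in healthy liver.

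A miRNA is cut from the stem of a hairpin transcript, and usually 1 of its arms is kept in the silencing complex while the other is mostly degraded. The kept strand pairs through its seed, bases 2 to 8 from the 5′ end, with sites in the 3′ UTRs of mRNAs and lowers their output. The miR-148 and miR-152 family is known in liver for its part in cholesterol handling, where it acts on the cholesterol exporter ABCA1, and in several tissues for acting on DNA methyltransferases.

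The mature sequences, from RefSeq (GRCm38.p6), are shown because the shared seed defines the family. They are written 5′ to 3′ with the seed in capitals; all 6 names matched, and all 6 lay at the positions the count table gives.
miR-148a-3p: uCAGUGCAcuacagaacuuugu
miR-148b-3p: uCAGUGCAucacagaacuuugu
miR-152-3p: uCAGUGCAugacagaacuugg
miR-148a-5p: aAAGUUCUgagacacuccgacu
miR-148b-5p: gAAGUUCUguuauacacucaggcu
miR-152-5p: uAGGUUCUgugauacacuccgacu
The 3 miRNAs of the 3p arms had the same seed. Among the 1623 miRNAs of the table with a RefSeq sequence, no other miRNA had it. The 5p arms fell into 2 seed groups, miR-148a-5p with miR-148b-5p, and miR-152-5p apart from them by the change A3G, counted from the 5′ end of miR-148b-5p.

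Outside the seed the 3p sequences were nearly the same. From 1 at the 5′ end of miR-148a-3p, miR-148b-3p differed by C9U and U10C, so 20 of 22 bases matched. Against miR-152-3p the changes were C9U, U10G and U20G, and 18 of 21 bases matched. Between miR-148b-3p and miR-152-3p they were C10G and U20G. The 5p sequences were less alike: miR-148a-5p matched miR-148b-5p at 13 of 22 bases and miR-152-5p at 12 of 22, while miR-148b-5p and miR-152-5p matched at 19 of 24. The sources used here do not give how reads with mismatches were assigned among the 3p miRNAs, so their split is less certain than their sum.

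The hairpins, also from RefSeq, are shown with both mature arms in capitals, because the 2 arms of each were counted at very different levels.
Mir148a: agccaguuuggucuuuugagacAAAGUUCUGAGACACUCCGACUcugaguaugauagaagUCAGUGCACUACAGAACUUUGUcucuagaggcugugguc
Mir148b: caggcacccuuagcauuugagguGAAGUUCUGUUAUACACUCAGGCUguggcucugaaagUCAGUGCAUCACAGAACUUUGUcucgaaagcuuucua
Mir152: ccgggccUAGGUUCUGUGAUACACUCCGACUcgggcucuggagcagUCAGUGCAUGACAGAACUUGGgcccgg
Mir148a lies at chr6:51269812-51269910 on the minus strand (GRCm38). It overlaps no other gene in GENCODE M21, and the nearest protein-coding gene is Nfe2l3, 162760 bases away on the other strand. Mir148b lies at chr15:103285125-103285221 on the plus strand, in an intron of Copz1. Mir152 lies at chr11:96850393-96850465 on the plus strand, in an intron of Copz2. Copz1 and Copz2 are paralogs that encode the zeta subunits of the COPI vesicle coat, so 2 of the 3 hairpins sit in introns of paralogous host genes, on the strand of the host.

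Total counts per library ranged from 3285249 to 16444675, and the deepest library was male replicate 3. One count stood for 0.0608 to 0.304 CPM (counts per 1000000 counts). Levels below are CPM with TMM-adjusted library sizes, a scaling that sets most miRNAs level between libraries, and 370 miRNAs passed the filter on low counts, all 6 members among them. The hepatocyte miRNA miR-122-5p took 32.5 to 35.5% of the counts of each library, as is characteristic of liver. Of 8 lists of cell type markers, those of endothelium, erythroid cells, biliary epithelium and muscle had summed levels that overlapped between the sexes. The pancreas list is given because miR-148a is also known in pancreas; its 4 markers summed to 3.04 to 5.12 CPM in females and 1.65 to 2.12 CPM in males, which did not overlap but were near 0 beside the level of miR-148a-3p. Of this list miR-375-3p was the only marker tested, and it was higher in females (log2 fold change 1.43, adjusted p = 0.0438, edgeR; not called by DESeq2).

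miR-148a-3p was the main product of the family and 1 of the most abundant miRNAs of the liver, ranked 10 or 11 in each library. It stood at 26475, 24047 and 24504 CPM in female replicates 1, 2 and 3 and at 24282, 25690 and 34960 CPM in male replicates 1, 2 and 3. Male replicate 3 was the highest, and the other 5 libraries lay within a narrow band that held both sexes. miR-152-3p stood at 1798, 1880 and 1838 CPM in females and at 1614, 1570 and 1706 CPM in males. Each female library was above each male library. miR-148b-3p stood at 1244, 1338 and 1360 CPM in females and at 1233, 1215 and 1448 CPM in males, with the groups mixed. The order miR-148a-3p, miR-152-3p, miR-148b-3p held in all 6 libraries; the 3 mature miRNAs are 21 or 22 bases long, so counts were not divided by length.

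**Figure D1:**
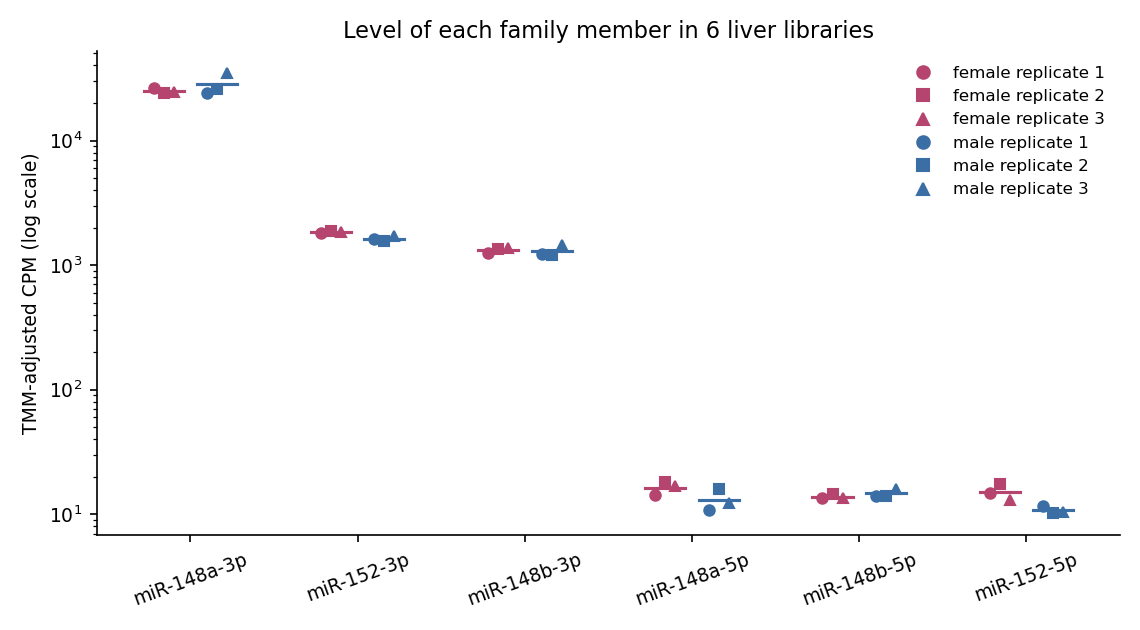
TMM-adjusted CPM on a log scale (vertical) of the 6 members (horizontal), with 1 point for each library, females in red and males in blue, and a line at each group's mean (n = 3). miR-148a-3p lies between 24047 and 34960 CPM, miR-152-3p and miR-148b-3p between 1215 and 1880 CPM, and the 5p arms between 10.2 and 18.0 CPM.

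The 5p arms were rare, with raw counts from 43 to 253 in a library. miR-148a-5p stood at 14.4, 18.0 and 16.8 CPM in females and at 10.8, 15.8 and 12.4 CPM in males. The groups overlapped through male replicate 2. miR-148b-5p stood at 13.5, 14.7 and 13.4 CPM in females and at 14.1, 13.9 and 16.1 CPM in males, again with overlap. miR-152-5p stood at 14.9, 17.4 and 13.1 CPM in females and at 11.7, 10.2 and 10.4 CPM in males, with each female above each male. Unlike the 3p arms, the 3 5p arms had no fixed order: their ranges overlapped, and neighbours did not differ beyond the spread between libraries.

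The counting error limits what can be read from the 5p arms. For miR-152-5p in male replicate 2, 43 counts carry a 95% exact Poisson interval of 31.1 to 57.9 counts. The coefficient of variation over the 6 libraries was 18.7% for miR-148a-5p, 6.88% for miR-148b-5p and 21.7% for miR-152-5p, where counting alone gives on average 11.3%, 11.5% and 12.1%. The spread of miR-148b-5p was thus no wider than its counting error. For the 3p arms counting alone gives 0.271% to 1.20%, and the measured values were 15.6% for miR-148a-3p, 6.996% for miR-148b-3p and 7.22% for miR-152-3p, so their spread lay well above counting error. Such intervals cover counting error only, since PCR copies of a molecule are counted as separate reads.

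No member passed the test between the sexes. In edgeR's quasi-likelihood test with Benjamini-Hochberg adjustment over the 370 miRNAs, 0 of 6 members had an adjusted p under 0.05, where 6.76% of all tested miRNAs did, 3.24% higher and 3.51% lower in females. DESeq2 and limma-voom also called 0 of 6. At an unadjusted p under 0.05 there was 1 member in edgeR, 0 in DESeq2 and 1 in limma-voom, where 18.1% of all tested miRNAs passed in edgeR. Of the 6 log2 fold changes (female over male), 4 were positive and the median was 0.095, against 48.1% positive and a median of -0.0096 over all tested miRNAs. The positive count was 5 with no TMM factor and 3 with upper-quartile factors.

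miR-148a-3p averaged 25009 ± 1290 CPM in the 3 females and 28311 ± 5801 CPM in the 3 males (SD). Its log2 fold change was -0.18 (SE 0.12, 95% interval -0.45 to 0.09, edgeR adjusted p = 0.497). That negative value rested on male replicate 3, without which the log2 fold change was 0.0049 (adjusted p = 0.992). Male replicate 3 was also the library of greatest depth; the part of depth in its level was not tested. After thinning all libraries to equal totals the log2 fold change was -0.16. Thinning keeps the expected share of each miRNA, so it could not show whether depth had a part.

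miR-148b-3p averaged 1314 ± 61.9 CPM in the 3 females and 1299 ± 130 CPM in the 3 males (SD). The log2 fold change was 0.02 with a 95% interval of -0.25 to 0.28 (edgeR adjusted p = 0.963), and its sign changed in 7 of 15 other fits, upper-quartile factors and limma-voom among them. miR-148b-5p had a log2 fold change of -0.09 (95% interval -0.54 to 0.35), and it was 0.05 with no TMM factor.

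Both arms of miR-152 were higher in each female library than in each male library, without passing the threshold. miR-152-3p averaged 1839 ± 40.9 CPM in females and 1630 ± 69.6 CPM in males, a log2 fold change of 0.17 (SE 0.11, 95% interval -0.06 to 0.41, edgeR adjusted p = 0.449). miR-152-5p averaged 15.1 ± 2.17 against 10.8 ± 0.834 CPM, a log2 fold change of 0.49 (SE 0.22, 95% interval 0.02 to 0.96, edgeR adjusted p = 0.261, unadjusted p = 0.0432). These 2 of 6 members had groups that did not overlap with females higher, as did 10.5% of all tested miRNAs. The values depended on scaling: with no TMM factor they were 0.31 and 0.63 (adjusted p = 0.107 for each), and with upper-quartile factors 0.08 and 0.39 (adjusted p = 0.723 and 0.35). miR-148a-5p, the other member with a positive value above 0.1, had a log2 fold change of 0.34 (SE 0.23, 95% interval -0.16 to 0.84, adjusted p = 0.484).

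**Figure D2:**
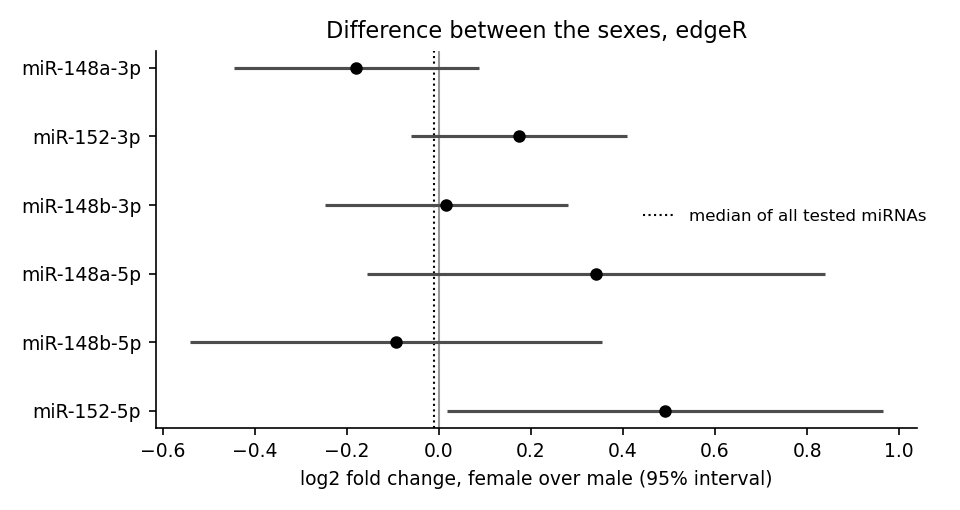
Log2 fold change of female over male (horizontal) for the 6 members (vertical), from edgeR with 3 libraries per sex; bars are 95% intervals for a single miRNA and the dotted line is the median of all 370 tested miRNAs. Only the bar of miR-152-5p, from 0.02 to 0.96, leaves out 0, and no member passed after adjustment.

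Beside the pancreas list, summed TMM-adjusted levels of the leukocyte, stromal and hepatocyte marker lists also lay apart between the sexes. The TMM factors themselves were higher in each female library (1.03 to 1.07) than in each male library (0.917 to 0.983). Without these factors the hepatocyte and stromal sums overlapped between the sexes. The 6 leukocyte markers summed to 6559 to 6745 CPM in females and 4895 to 6449 CPM in males, and all 6 had positive log2 fold changes (median 0.30), with miR-223-3p past the threshold (log2 fold change 0.62, adjusted p = 0.0467, edgeR; not called by limma-voom or with upper-quartile factors). The 5 stromal markers went the other way, at 8916 to 11436 CPM in females and 12108 to 12795 CPM in males; none passed in edgeR, DESeq2 or limma-voom, 1 had an unadjusted p under 0.05 in each of the 3, and 1 passed in edgeR with upper-quartile factors. The 6 hepatocyte markers in the table summed to 370663 to 374481 CPM in females and 396832 to 440360 CPM in males. Most of that sum is miR-122-5p (log2 fold change -0.21, adjusted p = 0.053, edgeR). Yet 5 of the 6 log2 fold changes were positive (median 0.31), and both miR-802 arms were higher in females (log2 fold changes 2.29 and 2.18, adjusted p = 0.000106 for each, edgeR). In limma-voom and with upper-quartile factors 1 hepatocyte marker was called lower, and in DESeq2 0. None of these listed markers was at 0 in the table. The part of these cell types in the values of miR-152 was not tested. In whole liver, fewer cells of a type and less RNA per cell cannot be told apart.

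Ratios of counts within a library need no scaling factor, and they show how strongly the 3p arm dominated. The 3p arm of miR-148a was counted 1337 to 2823 times as often as its 5p arm, that of miR-152 108 to 164 times and that of miR-148b 87.2 to 102 times. Among the 92 hairpin names with both arms tested, the median ratio of the larger to the smaller arm was 20.8, from counts summed over the libraries. By this ratio miR-148a ranked 4, miR-152 ranked 25 and miR-148b ranked 28 among the 92. Hairpins with an arm too rare to be tested, or whose 2 arms are numbered differently in their names, are not among the 92. The median and ranks therefore leave out some of the most one-sided hairpins. The arm ratio ranges of the 3 family hairpins did not touch, and their order was the same in all 6 libraries. The 5p arms of the 3 hairpins were at a like level of 10.2 to 18.0 CPM, so the higher arm ratio of miR-148a went with its 3p arm. Between miR-152 and miR-148b the 3p arms differed in the same direction in all 6 libraries, with 67851 counts of miR-152-3p and 52878 of miR-148b-3p in sum. The 5p sums were 480 for miR-152-5p and 583 for miR-148b-5p, but without a fixed order. In female replicates 1 and 2 miR-152-5p had the more counts (90 against 82, and 63 against 53), and in the other libraries the fewer.

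The arm ratio of miR-148a was 1843, 1337 and 1457 in females and 2257, 1624 and 2823 in males. The groups overlapped, and the ratio in females was 0.703 of that in males (geometric means). With 6 ratios compared between the sexes, its two-sided exact permutation p was 0.2 (adjusted p = 0.24), where 3 animals against 3 cannot go below 0.1. For miR-152 the arm ratio was 121, 108 and 140 in females and 138, 155 and 164 in males, also with overlap (exact permutation p = 0.2, adjusted p = 0.24). For miR-148b it was 91.8, 91.2 and 102 in females and 87.5, 87.2 and 90.1 in males. There the groups did not overlap, although the means, 94.9 ± 5.76 and 88.3 ± 1.604 (SD, n = 3 each), lay close (exact permutation p = 0.1, adjusted p = 0.2). This separation was fragile, since miR-148b-5p had only 47 to 253 counts in a library. The exact permutation p was 0.2 with 1 added to each count and 0.6 after thinning to equal totals.

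The balance among the 3p paralogs was compared the same way. miR-152-3p was counted 1.45, 1.40 and 1.35 times as often as miR-148b-3p in females and 1.31, 1.29 and 1.18 times in males. Each female ratio was above each male ratio, a difference of 0.15 on the log2 scale. The exact permutation p of 0.1 is the smallest this design allows, and the adjusted p was 0.2. miR-148a-3p was counted 14.7, 12.8 and 13.3 times as often as miR-152-3p in females and 15.04, 16.4 and 20.5 times in males, with every female below every male (log2 difference -0.34, exact permutation p = 0.1, adjusted p = 0.2). Female replicate 1 and male replicate 1, at 14.7 and 15.04, were close to each other. For miR-148a-3p to miR-148b-3p the ratios were 21.3, 18.0 and 18.0 in females and 19.7, 21.2 and 24.1 in males, with overlap (exact permutation p = 0.3, adjusted p = 0.3). None of the 6 ratios passed a threshold of 0.05, which no ratio could at this number of animals.

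**Figure D3:**
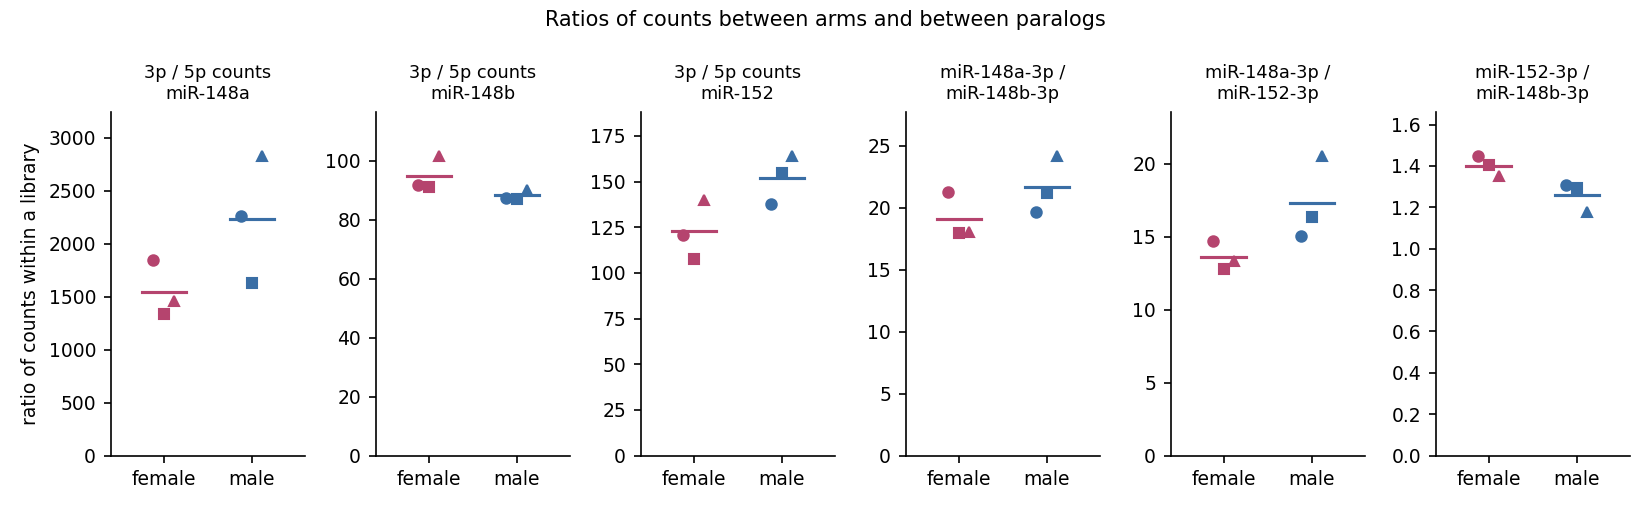
Ratio of counts within a library (vertical, from 0) for the 3 arm ratios and the 3 paralog ratios, 1 panel each, by sex (horizontal), with 1 point for each library and a line at each group's mean (n = 3). In the last panel the female ratios of miR-152-3p to miR-148b-3p, 1.35 to 1.45, all lie above the male ratios, 1.18 to 1.31.

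As a whole the family made up 2.96 ± 0.148% of a female library and 2.98 ± 0.584% of a male library (SD, n = 3 each). The female libraries held 3.11, 2.81 and 2.96%, and the male libraries 2.67, 2.62 and 3.65%. Male replicate 3 was again the highest and the other 2 male libraries were the lowest, so the male libraries lay on both sides of the female ones. Within the family miR-148a-3p made up 88.0 to 91.6% of the counts, miR-152-3p 4.47 to 6.88% and miR-148b-3p 3.80 to 4.90%. The 5p arms together made up 0.102 to 0.183%.

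The 3p seed also meets a second seed family. The miR-130 and miR-301 family, known to act on Abca1 as well, has the seed AGUGCAA, which is the miR-148 seed moved by 1 base. miR-130a-3p, printed with its seed in capitals to show the offset, is its most abundant member here.
miR-130a-3p: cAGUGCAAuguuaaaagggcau
Its level was 759, 851 and 797 CPM in females and 841, 535 and 795 CPM in males, with the groups mixed. Of the 6 listed members of that family, 4 were tested and none passed in edgeR, DESeq2 or limma-voom, with 0 at an unadjusted p under 0.05 in each; 3 of the 4 values were positive and the median log2 fold change was 0.28, against -0.0096 over all tested miRNAs. The 3 most abundant of the 4 had values of 0.15 for miR-130a-3p, 0.42 for miR-301a-3p and -0.53 for miR-130b-3p. The least abundant of the 4 had the highest value, 0.74. Both it and miR-130b-3p were rare, with group means from 2.55 to 5.61 CPM.

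Matches to the shared 3p seed were searched in mouse 3′ UTRs, as a description of where the family could pair. The letters searched were TGCACTG, the reverse complement of the seed, on the mRNA strand only, in the longest GENCODE M21 3′ UTR of each of 21020 protein-coding genes. This 7-base match was present in 12.7% of genes (2672), and the 8-base form TGCACTGA in 3.59% (755). The 3′ UTRs with a match had a median of 2281 bases against 826 bases for those without. A T before the match, TTGCACTG, makes it a match to the miR-130 seed (TTGCACT) at the same time; 24.7% of the 3127 matches had it, and TTGCACT was present in 9.99% of genes.

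Of 10 genes reported by name, 5 held a match and 1 held the 8-base form. They were listed because the family is known to act on several of them, or as host genes or as the gene of the series, so their count is not set against the background. The sites in Dnmt1, Abca1 and Copz1 are shown because they cover the maintenance DNA methyltransferase, the cholesterol exporter and the host gene of Mir148b. The 7 bases that match the seed are in capitals, in the sense of the mRNA, from GENCODE M21 transcripts (GRCm38).
Dnmt1, chr9:20907488-20907512, minus strand: cccagagccccacgTGCACTGatgt
Abca1, chr4:53033879-53033903, minus strand: gcgaggtcttccttTGCACTGtgtc
Abca1, chr4:53030970-53030994, minus strand: aatggatctattttTGCACTGgaat
Copz1, chr15:103299740-103299764, plus strand: agcattctggcccaTGCACTGgctg
The Dnmt1 match was an 8-base match 23 bases after the stop codon in a short 3′ UTR of 312 bases, without the miR-130 letters. Both matches of Abca1, at 54 and 2963 of 3156 bases, also matched the miR-130 seed. Copz1, whose intron holds Mir148b, had 1 match at 1823 of 1934 bases, while Copz2, the host of Mir152, had none in 293 bases. Nr1i2, which encodes the xenobiotic receptor PXR, and Mitf, a transcription factor gene, had 1 each. No match was present in these windows of Dnmt3a, Dnmt3b, Cpt1a or Sh3bp5, the gene of SAB. A match is letters in a sequence; no mRNA was measured here.

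**Figure D4:**
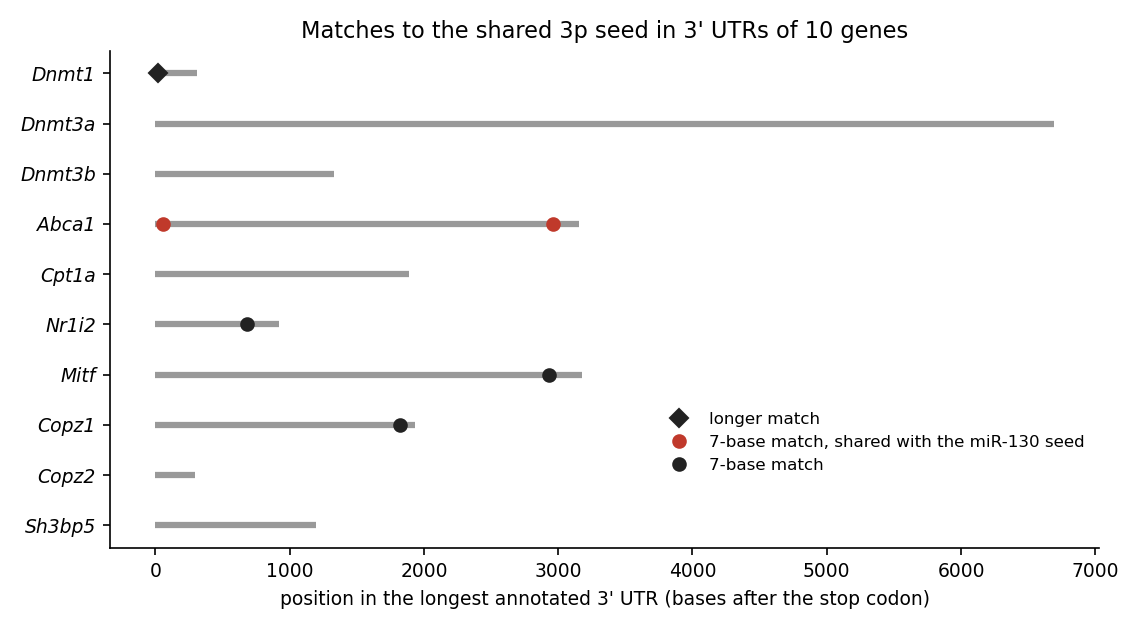
Matches to the shared 3p seed (points) along the longest annotated 3′ UTR (grey bars) of 10 genes, in bases after the stop codon; the diamond is an 8-base match and circles are 7-base matches, and red marks the 2 of 6 matches that also match the miR-130 seed. Both points of Abca1 are red, the diamond is in Dnmt1, and 5 genes have no point.

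Lists of other miRNAs known for cholesterol handling or for DNA methyltransferases had medians near 0 between the sexes with TMM factors. Of 14 miRNAs listed for cholesterol handling, 13 were tested and 1 was higher in females (miR-223-3p, above) and 0 lower, where 6.76% of all tested miRNAs were called. Of the 13 log2 fold changes 6 were positive, against 48.1% over all tested miRNAs. Their median was -0.0033, which was 0.13 with no TMM factor and -0.10 with upper-quartile factors. With upper-quartile factors and in limma-voom the calls were 0 higher and 1 lower, and with DESeq2's median-ratio factors in edgeR 1 higher and 1 lower. The list holds miR-122-5p, lower in TMM-adjusted CPM in each female library than in each male library (log2 fold change -0.21, adjusted p = 0.053, edgeR). As a share of counts, with no TMM factor, its groups overlapped, at 33.79% in female replicate 3 and 33.77% in male replicate 1. Of 9 miRNAs listed for DNA methyltransferases, none passed in edgeR, DESeq2 or limma-voom; at an unadjusted p under 0.05 there were 0, 0 and 1. Their median log2 fold change was -0.0037, against -0.0096 over all tested miRNAs, and it was 0.13 with no TMM factor and -0.10 with upper-quartile factors. The most abundant of them stood at -0.07 for miR-126a-3p, also an endothelial marker, 0.01 for miR-29a-3p and -0.0037 for miR-29c-3p.

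The miRNAs whose levels followed each 3p member most closely over the 6 libraries were found by the root mean square difference of log2 CPM, each centred on its own mean, among 242 other tested miRNAs of at least 10 CPM on average. For miR-152-3p they were miR-27b-3p (0.040), miR-23b-3p (0.049) and miR-340-5p (0.063), where the median over the 242 was 0.23. For miR-148b-3p they were miR-98-5p (0.061), miR-574-3p (0.064) and miR-26b-5p (0.065), with a median of 0.24. For miR-148a-3p they were miR-148b-5p, miR-26b-5p and let-7c-5p, each at 0.13 with a median of 0.30. Of these, miR-148b-5p had a spread no wider than its counting error, so its place here is uncertain. The values of miR-148a-3p lie farther from their neighbours than those of the other 3p members. All profiles share the same libraries and scaling factors, and a small difference can come from little variation in both miRNAs.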

How the data were processed

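The deposited table gives, for each mature miRNA, an estimated count of reads that the authors did not scale to library size. The submitters' processing notes name Partek, Bowtie and mm10 but no versions. Per the labels' protocols, liver pieces were frozen in a stabilising buffer and a Qiagen kit was used. The sources used here do not give trimming, mismatch handling or molecular identifiers, nor which animals shared a litter. Counts of different sequences can also differ in how well each was captured. Of 2045 rows, 138 exact repeats were left out; all 36 values of the members were whole, and other values were rounded. No library pair was a duplicate (chi-square per degree of freedom at least 25.3).

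Groups came from the sex in the labels; replicate numbers follow accession order and pair no animals, and the labels give no batch. Sexes were compared with edgeR 4.0.16 in R 4.3.3 (TMM, filterByExpr by group with min.count 10 and min.total.count 15, robust quasi-likelihood test, adjustment over 370 miRNAs, threshold 0.05), checked on simulated data. Intervals are the estimate plus or minus a t quantile times its SE. Alternatives included DESeq2 1.42.0 and limma-voom (limma 3.58.1). Ratios used an exact permutation test (scipy 1.17.1). The members and lists were chosen with earlier results of these data known, so a planned test of the family's share of counts is not given. Every member is named. Some genes of the planned search are not reported here. From a list, at most 4 called miRNAs are named, or if none was called at most 3 abundant ones, and for each 3p member its 3 closest miRNAs.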

Additional observations from a re-analysis of the deposited data

How the results depend on the processing

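Depth limits the 5p arms most, and 3 animals a group limit every comparison. None of the 6 members passed in any of 15 other fits; the lowest adjusted p was 0.107, and 81 of 90 values kept their direction. The 9 that changed sign were all near 0. For miR-148b-3p these were -0.075 with upper-quartile factors, -0.018 with the filter of 50 counts in 3 libraries and -0.0010 in limma-voom, and leaving out 1 library gave -0.045 to 0.10. miR-148b-5p was 0.045 with no TMM factor. Leaving out 1 library gave -0.30 to 0.0049 for miR-148a-3p, positive only without male replicate 3. Scaling shifts all values nearly alike: the median over all tested miRNAs, -0.0096 on the log2 scale, became 0.13 with no TMM factor and -0.10 with upper-quartile factors, which carries values near 0 across it; the cause of the other sign changes was not tested. The share of calls higher in females moved from 48% to 65% and 26.9% with these factors. The count of 25 calls over all miRNAs was 9 to 32 without 1 library; leaving out female replicate 2 gave 9, female replicate 3 gave 10 and male replicate 3 gave 12. All 48 values of the 6 ratios kept their direction. For ratios whose groups did not overlap, leaving out 1 library could not change it. The exact permutation p could not go below 0.1, or below 0.2 without 1 library. The family's share, -0.018 percentage points in females against males, ranged from -0.20 to 0.32 without 1 library, the highest without male replicate 3. With all annotated 3′ UTRs of a gene, 13.4% held the 7-base match. Thinning was chosen after seeing the data. No paired analysis was possible because the labels neither number replicates nor say which animals shared a litter.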
